A study of Mus musculus with 6 samples.

Results

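The neutrophil granule and alarmin genes are 10 genes chosen by name: Mpo, Elane, Prtn3 and Ctsg of the primary granules, Ngp, Camp, Ltf and Lcn2 of the secondary granules, and the alarmin genes S100a8 and S100a9. Each had 1 probe set with its symbol, so they made up 10 of the 19938 genes measured. They were read in long-term hematopoietic stem cells (LT-HSCs) sorted from bone marrow of Lxn-/- mice, in which exons 2 to 4 of the latexin gene are deleted and the protein is lacking, and of WT mice with an intact latexin gene. All mice were C57BL/6 females 8 to 12 weeks of age. Each genotype had 3 pools with 1 array each, and per the design text a pool held about 100000 cells from 10 to 20 mice. Pools were thus the replicates behind every p-value. The labels do not say whether the pools were sorted on the same day.

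Neutrophils load their granules in sequence as they mature. Granulocyte-monocyte progenitors and promyelocytes make the primary (azurophil) granule proteins, among them myeloperoxidase and a family of serine proteases. Myelocytes and later cells switch those genes off and make the secondary granule proteins, among them proteins that bind iron, siderophores or microbial membranes. S100a8 and S100a9 encode the subunits of calprotectin, an abundant cytosolic protein of mature neutrophils that acts as an alarmin, a danger signal, once released. Stem cells stand upstream of all of these stages.

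The gate was negative for lineage markers, for CD34 and for Flt2 as the labels spell it, and positive for Sca1 and c-Kit. The labels do not list the lineage antibodies. All 16 measured LT-HSC markers lay above 6.96 on the log2 scale, a level that 95% of the values of 1212 probe sets for olfactory and vomeronasal receptors did not pass, in every pool. Kit, the receptor on which the gate selects, had 12.81, 12.90 and 12.96 in Lxn-/- pools 1, 2 and 3, against 12.80, 12.86 and 12.90 in WT pools 1, 2 and 3. Cd34, whose protein the gate selects against, had 13.21, 13.01 and 13.30 in the Lxn-/- pools and 13.08, 13.15 and 13.14 in the WT pools, so its transcript was well above that level in all 6 pools. Of the 9 markers that define neutrophils, 7 were above it in every pool and none was below it in every pool. Lxn itself had 8.66, 8.78 and 8.78 in the Lxn-/- pools, against 8.99, 9.09 and 9.55 in the WT pools, a difference of -0.47 (SE 0.14, limma adjusted p = 0.993), and the sources used here do not say where its probes lie relative to the deleted exons.

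The genes split by granule class in how they varied between pools. The 4 primary granule genes stayed within 2.04-fold over all 6 pools, with Mpo within 1.26-fold. The ranges of the 6 secondary granule and S100 genes ran from 2.37 log2 units (5.17-fold) for Camp to 3.70 log2 units for Ltf. Pools of the same genotype already differed by up to 3.33 log2 units, for S100a9 in WT. No member passed the test between genotypes.

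The promoters of both classes are shown, and their part in the pool orders was not tested. They are the 250 bases before the annotated gene start, from RefSeq on GRCm38.p6, and all 10 members matched an entry. Capitals mark the words AGGAAGT, the form bound by the myeloid factor PU.1 and other ETS factors, and TTGCNNAA, a form bound by C/EBP factors. Both strands were searched, none of the members held both words, and the words were chosen after the sequences had been seen. Elane and Prtn3, adjacent protein-coding genes on chromosome 10, stand for the primary class at chr10:79886062-79886311 and chr10:79879417-79879666, both on the plus strand.
Elane: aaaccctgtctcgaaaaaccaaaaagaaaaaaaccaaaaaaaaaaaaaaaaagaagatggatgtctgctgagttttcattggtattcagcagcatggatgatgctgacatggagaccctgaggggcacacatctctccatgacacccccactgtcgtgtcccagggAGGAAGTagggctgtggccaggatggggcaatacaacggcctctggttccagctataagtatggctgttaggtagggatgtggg
Prtn3: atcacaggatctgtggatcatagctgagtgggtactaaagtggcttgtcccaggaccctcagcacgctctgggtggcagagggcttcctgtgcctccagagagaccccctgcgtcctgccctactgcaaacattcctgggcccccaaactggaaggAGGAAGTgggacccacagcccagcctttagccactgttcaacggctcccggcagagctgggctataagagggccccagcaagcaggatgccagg

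Ngp and Ltf stand for the secondary class at chr9:110419558-110419807 and chr9:111019042-111019291, both on the plus strand. S100a8 at chr3:90668821-90669070 on the plus strand and S100a9 at chr3:90695722-90695971 on the minus strand are adjacent protein-coding genes and stand for the alarmins.
Ngp: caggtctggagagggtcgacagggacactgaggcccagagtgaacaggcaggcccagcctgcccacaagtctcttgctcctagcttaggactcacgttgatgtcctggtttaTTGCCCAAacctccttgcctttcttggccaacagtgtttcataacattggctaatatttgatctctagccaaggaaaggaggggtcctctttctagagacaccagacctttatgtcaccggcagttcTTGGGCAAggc
Ltf: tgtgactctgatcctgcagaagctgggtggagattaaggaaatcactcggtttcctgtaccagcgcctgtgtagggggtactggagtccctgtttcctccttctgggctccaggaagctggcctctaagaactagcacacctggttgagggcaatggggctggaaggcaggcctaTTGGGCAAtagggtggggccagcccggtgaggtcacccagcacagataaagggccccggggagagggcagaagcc
S100a8: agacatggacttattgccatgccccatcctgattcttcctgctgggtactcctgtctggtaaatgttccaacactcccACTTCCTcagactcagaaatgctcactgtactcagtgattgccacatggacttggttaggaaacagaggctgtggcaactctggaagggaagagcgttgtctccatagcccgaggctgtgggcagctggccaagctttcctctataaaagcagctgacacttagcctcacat
S100a9: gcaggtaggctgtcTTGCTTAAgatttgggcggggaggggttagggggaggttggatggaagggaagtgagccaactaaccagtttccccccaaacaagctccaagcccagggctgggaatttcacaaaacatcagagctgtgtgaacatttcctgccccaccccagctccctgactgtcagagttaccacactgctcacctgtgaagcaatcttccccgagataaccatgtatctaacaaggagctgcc

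The word AGGAAGT stood in 4 of 4 primary granule promoters, 0 of 4 secondary granule promoters and 1 of 2 S100 promoters, against 7.69% of 32851 promoters of the same length. The word TTGCNNAA stood in 0 of 4 primary, 3 of 4 secondary (Ngp, Ltf and Lcn2) and 1 of 2 S100 promoters, against 9.56% of all promoters. In the Elane promoter the ETS word lay 84 to 78 bases before the start, and in that of Prtn3 it lay 94 to 88 bases before it. In Ltf the C/EBP-type word lay 75 to 68 bases before the start, and in S100a9 it lay 236 to 229 bases before it. A match is a description of the letters and shows no binding.

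Mpo, which encodes the heme enzyme myeloperoxidase that makes hypochlorous acid, had a log2 signal of 13.47, 13.59 and 13.34 in Lxn-/- pools 1, 2 and 3, against 13.44, 13.67 and 13.34 in WT pools 1, 2 and 3. The values of the genotypes overlapped, at 13.46 ± 0.13 in Lxn-/- and 13.49 ± 0.17 in WT (SD, n = 3 each). Elane, which encodes neutrophil elastase, had 12.81, 13.24 and 12.59 in the Lxn-/- pools, against 13.004, 13.31 and 12.76 in the WT pools. In each genotype replicate 2 had the highest value of Elane and replicate 3 the lowest, and the genotypes overlapped.

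Prtn3, which encodes proteinase 3, had 11.96, 11.99 and 11.63 in the Lxn-/- pools, against 11.85, 12.27 and 11.33 in the WT pools. Ctsg, which encodes the protease cathepsin G, had 12.65, 12.80 and 12.27 in the Lxn-/- pools, against 12.52, 12.98 and 11.96 in the WT pools. For both genes the WT pools held the highest and the lowest of the 6 values, so the Lxn-/- range lay inside that of WT. All 4 primary granule genes were highest in WT replicate 2, and in both genotypes their pools came in the order replicate 2, 1, 3, an order found for 2.42% of all probe sets.

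**Figure D1:**
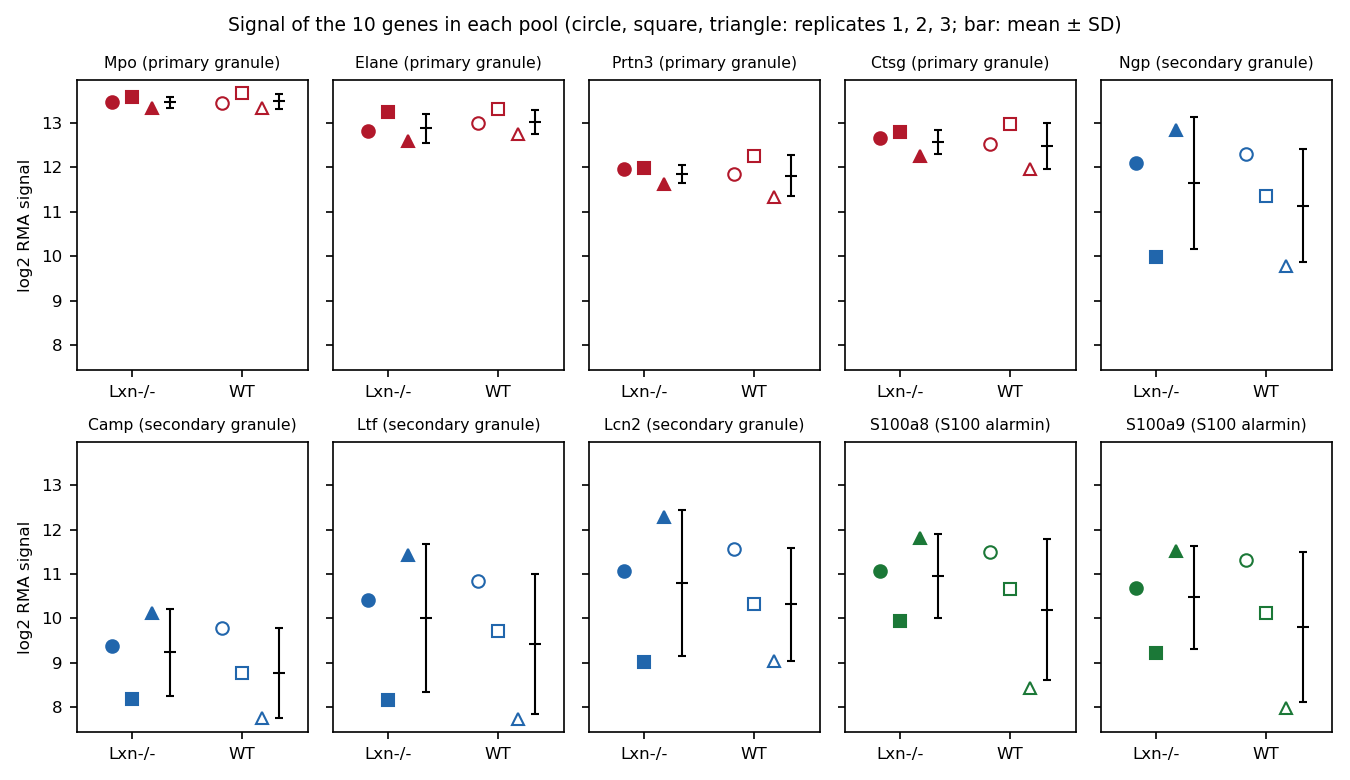
Log2 RMA signal (y axis) of each of the 10 genes, with the Lxn-/- pools left (filled) and the WT pools right (open), and the mean ± SD of 3 pools as a bar. The primary granule genes (red) span at most 1.03 log2 units within a genotype, while the secondary granule (blue) and S100 genes (green) span 1.88 to 3.33.

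Ngp, which encodes neutrophilic granule protein, had 12.10, 9.98 and 12.85 in Lxn-/- pools 1, 2 and 3, against 12.31, 11.35 and 9.77 in WT pools 1, 2 and 3. Replicate 2 was the low pool in Lxn-/- and replicate 3 in WT, and the highest and lowest pools were 7.30-fold apart in Lxn-/- and 5.80-fold apart in WT. Camp, which encodes the antimicrobial cathelicidin, had 9.39, 8.20 and 10.13 in the Lxn-/- pools, against 9.79, 8.78 and 7.76 in the WT pools. Its pools ranked as those of Ngp did, with a narrower range.

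Ltf, which encodes the iron-binding protein lactoferrin, had 10.42, 8.17 and 11.43 in the Lxn-/- pools, against 10.85, 9.72 and 7.73 in the WT pools. It had the widest range of the 10 genes over all 6 pools, 3.70 log2 units. Its pools differed 9.57-fold within Lxn-/- and 8.66-fold within WT. Lcn2 ranged slightly wider among Lxn-/- pools, at 9.59-fold, and S100a9 ranged wider among WT pools. Lcn2, which encodes the siderophore-binding protein lipocalin 2, had 11.06, 9.03 and 12.29 in the Lxn-/- pools, against 11.57, 10.33 and 9.05 in the WT pools. Its 2 lowest pools, Lxn-/- replicate 2 and WT replicate 3, were nearly level.

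S100a8 had 11.08, 9.94 and 11.82 in the Lxn-/- pools, against 11.50, 10.67 and 8.42 in the WT pools. S100a9 had 10.68, 9.23 and 11.52 in the Lxn-/- pools, against 11.32, 10.12 and 7.99 in the WT pools. For the S100 genes WT replicate 3 was farther below the other pools than for the granule genes, and the WT range was the wider one, 3.08 log2 units for S100a8 and 3.33 for S100a9, where the Lxn-/- pools ranged over 1.88 and 2.30. Fewer mature cells in a pool and less RNA per cell cannot be told apart in such bulk samples.

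The pool order was shared within each class and differed between classes. All 6 secondary granule and S100 genes were highest in Lxn-/- replicate 3, with the Lxn-/- pools in the order replicate 3, 1, 2 and the WT pools in the order 1, 2, 3, a joint order found for 4.22% of all probe sets. For 5 of the 6, all except Lcn2, the order over all pools was also the same, which held for 0.278% of all probe sets. Among Lxn-/- pools the primary granule genes ran in exactly the opposite order, 2, 1, 3. Averaged over the genes of a class after centring each gene, the secondary granule genes stood at 0.57, -1.32 and 1.51 in Lxn-/- pools 1, 2 and 3 and at 0.96, -0.12 and -1.59 in WT pools 1, 2 and 3. The same averages for the primary granule genes were 0.025, 0.21 and -0.24 in the Lxn-/- pools and 0.0044, 0.36 and -0.35 in the WT pools. WT replicate 3 was thus low for both classes, while Lxn-/- replicate 3 was the highest pool for one class and low for the other.

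**Figure D2:**
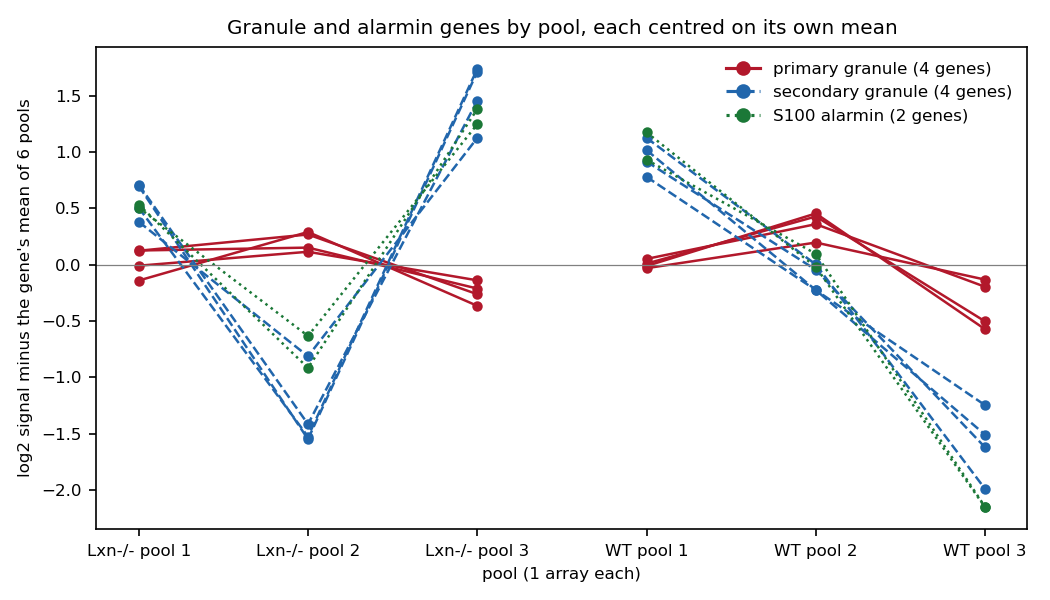
Log2 signal minus the gene's own mean of 6 pools (y axis) for the 10 genes in each pool (x axis), with Lxn-/- pools left and WT pools right; each line follows 1 gene within a genotype and implies no order of pools. The secondary granule (dashed) and S100 (dotted) genes move together and peak in Lxn-/- pool 3, and the primary granule genes (solid) peak in WT pool 2 with a smaller range.

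The spread between pools of the same genotype was measured as the pooled standard deviation (SD) over 3 Lxn-/- and 3 WT arrays. It was 1.62 for Ltf, 1.47 for Lcn2, 1.45 for S100a9, 1.39 for Ngp, 1.31 for S100a8 and 0.995 for Camp, where the median of all 23410 probe sets was 0.103 and their 99th percentile 0.477. Only 17 probe sets, 15 of them with a single symbol, reached the spread of Camp. Besides the 6 members, those 15 held the neutrophil genes Mmp8, Ly6g, Retnlg, Chil3, Ifitm6 and Mmp9. The rest were outside the neutrophil lists: Igkv5-43 with 1.62, Ear6 with 1.15 and Epx with 1.13. The primary granule genes had an SD of 0.41 for Ctsg, 0.36 for Prtn3 and 0.31 for Elane, at the 98.6th, 97.9th and 96.9th percentile, and 0.15 for Mpo at the 76.9th.

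**Figure D3:**
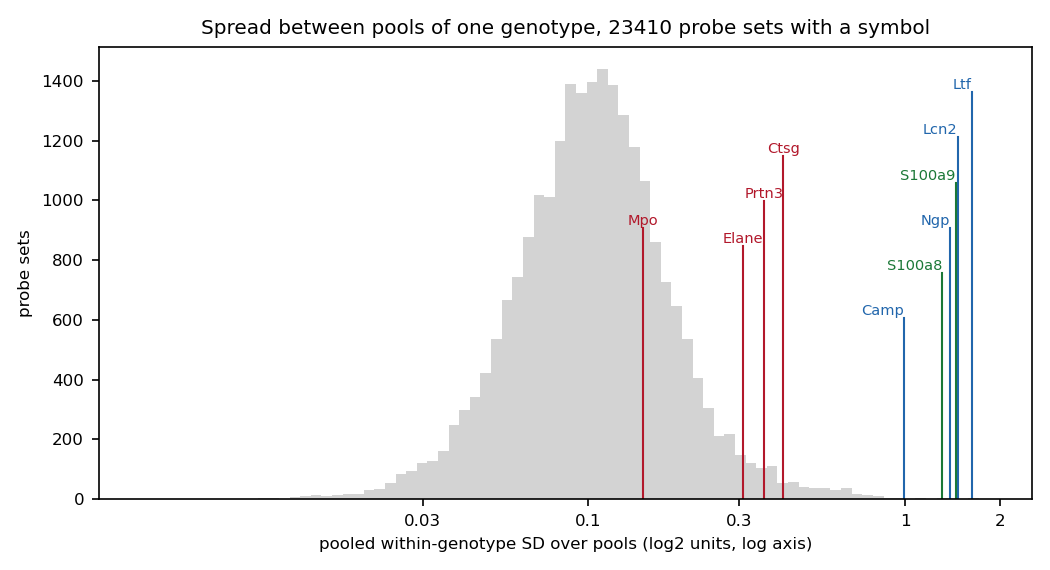
Histogram of the pooled within-genotype SD over pools (x axis, log2 units on a log axis) for 23410 probe sets (y axis, number of probe sets), with the 10 genes marked by lines whose heights carry no value. The secondary granule (blue) and S100 genes (green) lie at the far right, from 0.995 to 1.62, and the primary granule genes (red) lie between 0.15 and 0.41.

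Between genotypes, 0 of the 10 genes passed limma at an adjusted p of 0.05, where 0% of all probe sets did. At an unadjusted p of 0.05 the count was also 0 of 10, against 3.9% of all probe sets. In 0 of the 10 did the 3 Lxn-/- values lie clear of the 3 WT values, against 8.98% of all probe sets in either direction, 3.6% higher and 5.38% lower in Lxn-/-. The primary granule genes had differences of -0.022 (SE 0.10) for Mpo, -0.14 (SE 0.19) for Elane, 0.044 (SE 0.22) for Prtn3 and 0.087 (SE 0.25) for Ctsg, with 2 genes above 0 and 2 below and a median of 0.011. Their 95% confidence intervals ran from -0.26 to 0.22 for Mpo and from -0.48 to 0.66 for Ctsg.

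All 4 secondary granule genes and both S100 genes had higher means in Lxn-/-, where 45.5% of all probe sets did. The secondary granule genes differed by 0.50 (SE 0.81) for Ngp, 0.46 (SE 0.58) for Camp, 0.57 (SE 0.94) for Ltf and 0.48 (SE 0.85) for Lcn2, with a median of 0.49. S100a8 differed by 0.75 (SE 0.76) and S100a9 by 0.66 (SE 0.84). The median over all probe sets was -0.0099. Each of these differences was smaller than its standard error, and the 95% confidence interval of Ltf ran from -1.61 to 2.76. These standard errors rest on variances that limma draws toward the smaller ones of most probe sets. Exact two-sided permutation tests of 3 against 3 pools, whose smallest possible p is 0.1, gave p-values of 0.6 to 0.9 over the 10 genes, and the limma adjusted p was at least 0.993 for each.

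The direction depended on which pools were included. Without WT replicate 3 all 6 secondary granule and S100 genes had lower means in Lxn-/-, from -0.28 for Ltf to -0.046 for Camp. Without Lxn-/- replicate 2 the difference was 1.33 for Ngp, 1.49 for Ltf and 1.36 for Lcn2. Without WT replicate 1 it was 1.40 for S100a8 and 1.42 for S100a9. Without Lxn-/- replicate 3 it was -0.10 for Ngp, -0.14 for Ltf and -0.27 for Lcn2, while it stayed above 0 at 0.015 for Camp, 0.31 for S100a8 and 0.14 for S100a9.

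**Figure D4:**
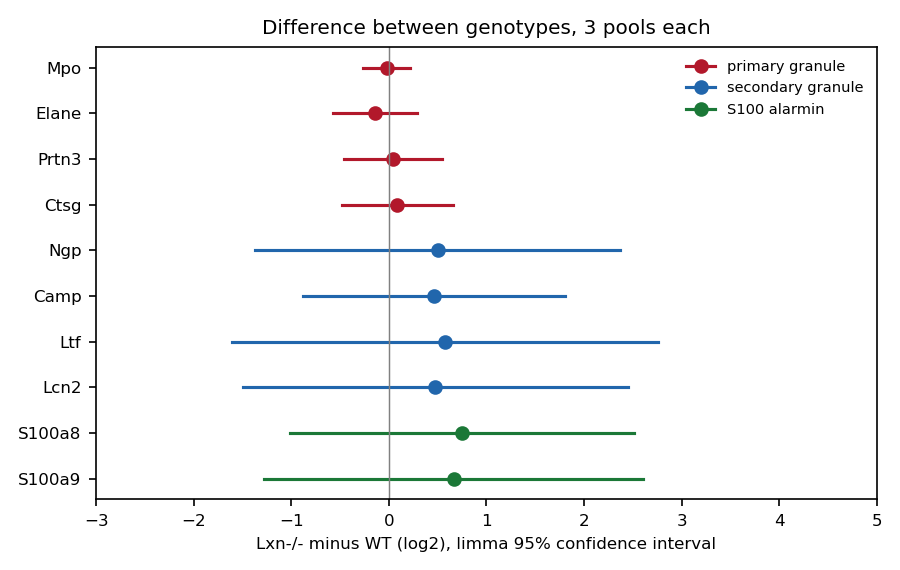
Difference Lxn-/- minus WT (x axis, log2) of each gene (y axis) with limma's 95% confidence interval, 3 pools per genotype. Every interval includes 0, and those of the secondary granule (blue) and S100 genes (green) are wider than those of the primary granule genes (red).

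The genes whose profiles lay nearest to each class were sought among 20360 probe sets with a single, named gene outside the members, by the root-mean-square difference of centred log2 values over the 6 arrays. Nearest to the mean of the secondary granule and S100 genes were Chil3, a chitinase-like protein of myeloid cells (0.18), Ifitm6 (0.24), Ly6g, the surface antigen that marks mouse neutrophils (0.28), Mmp9, a gelatinase of tertiary granules (0.37), and Mmp8, a collagenase of secondary granules (0.49). All 5 were among the neutrophil genes listed here. Ly6g had 8.68, 6.72 and 10.14 in the Lxn-/- pools, against 9.05, 8.25 and 6.71 in the WT pools, so it lay below the receptor level of 6.96 in Lxn-/- replicate 2 and WT replicate 3. Mmp8 had 8.06, 6.22 and 10.19 in the Lxn-/- pools, against 8.99, 8.08 and 5.70 in the WT pools, and was below that level in the same pools.

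Nearest to the mean of the primary granule genes were Arsb, a lysosomal sulfatase (0.032), Prss57, a serine protease of primary granules (0.058), Sec61b, a subunit of the channel through which secretory proteins enter the endoplasmic reticulum (0.066), Ncam1, an adhesion molecule (0.074), and Igsf6 (0.075). Within each genotype Arsb had the pool order of the primary granule members.

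Other genes of the pathway gave 0 that passed in either direction. Of 15 other primary granule and promyelocyte genes measured, 9 were higher and 6 lower in Lxn-/- with a median difference of 0.024, and 5 shared the pool order of the primary members: Ms4a3, Cst7, Nkg7, Igsf6 and Prss57. Those of lowest unadjusted p were Rnase2a with 0.18 (SE 0.13) and Bpi with 0.13 (SE 0.092), both below the receptor level in every pool. Ms4a3, a surface protein of granulocyte-monocyte progenitors, had 10.20, 10.36 and 9.55 in the Lxn-/- pools, against 10.29, 10.57 and 9.36 in the WT pools. None of the 15 had the pool order of the secondary granule and S100 members.

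Of 22 other secondary and tertiary granule genes measured, 18 were higher and 4 lower in Lxn-/- with a median of 0.14, 18 were highest in Lxn-/- replicate 3, against 17.6% of all probe sets, and 16 had the pool order of the secondary granule and S100 members. Arg2, a mitochondrial arginase and 1 of those 16, differed by 0.23 (SE 0.14) but lay below the receptor level in every pool, and Itgb2l, an integrin beta chain, differed by 0.38 (SE 0.22). Retnlg, a resistin-like protein of neutrophils, had 8.69, 7.47 and 10.75 in the Lxn-/- pools, against 9.90, 9.66 and 7.84 in the WT pools, a difference of -0.16 (SE 0.82). It had the pool order of the members with a mean lower in Lxn-/-.

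Of 18 surface and signalling genes of mature neutrophils measured, 14 were higher and 4 lower with a median of 0.15, and 8 had the pool order of the secondary granule and S100 members. Clec7a, the beta-glucan receptor, differed by 0.23 (SE 0.13) and Pirb, an inhibitory receptor, by 0.32 (SE 0.19). Among 5 measured genes of the NADPH oxidase, which makes superoxide, 2 were higher and 3 lower. Cyba, its membrane subunit p22phox, differed by -0.22 (SE 0.076, adjusted p = 0.993 in limma). It had 11.73, 11.71 and 11.78 in the Lxn-/- pools, all below 12.08, 11.87 and 11.93 in the WT pools. Such a separation with Lxn-/- lower was found in 1 of the 5 genes, against 5.38% of all probe sets. The small GTPase gene Rac2 differed by -0.11 (SE 0.077).

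Of 14 granulocyte transcription factors, 11 were higher and 3 lower with a median of 0.029. Klf4, a factor of monocytes, differed by 0.48 (SE 0.20) and Cebpd, above the receptor level in 1 pool, by 0.19 (SE 0.095). Cebpe, the C/EBP factor required for secondary granule genes, had 9.16, 8.92 and 8.86 in the Lxn-/- pools, against 9.30, 9.54 and 8.21 in the WT pools. Its highest value was in WT replicate 2, as for the primary granule genes, and not in Lxn-/- replicate 3. Its Lxn-/- pools came in the order replicate 1, 2, 3, that of neither class. Gfi1, a repressor needed for granulocyte development, had 9.75, 9.55 and 9.74 in the Lxn-/- pools, against 9.72, 9.69 and 9.33 in the WT pools.

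Of the 12 other S100 genes, 6 were higher and 6 lower with a median of 0.0017, and none had the pool order of S100a8 and S100a9. S100a6, a calcium-binding protein gene of many tissues, differed by 0.17 (SE 0.13) and S100a16 by -0.11 (SE 0.078). Of 10 alarmin receptor and signalling genes measured, 2 were higher and 8 lower with a median of -0.059, including the adaptors Ticam1 with -0.22 (SE 0.096) and Myd88 with -0.080 (SE 0.077). Among 5 measured inhibitors and partners of granule proteins, 4 were higher and 1 lower. Lrp1, a scavenger receptor for protease complexes, differed by 0.29 (SE 0.17), and Slc22a17, the receptor of lipocalin 2, by 0.077 (SE 0.082).

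Markers of other cells were set beside these genes, and their part in the results was not tested. Over the 9 defining neutrophil markers, 5 of which are members, the summed log2 signal ran from 73.7 to 98.2 in Lxn-/- and from 69.9 to 92.1 in WT, and 9 of 9 had the pool order of the secondary granule and S100 members. Over the 11 measured monocyte markers it ran from 103.9 to 106.6 in Lxn-/- and from 104.5 to 106.5 in WT, and 0 of 11 had that order. Of these 11, 8 were higher and 3 lower in Lxn-/- with a median of 0.060. In 3 the genotypes did not overlap, 1 higher and 2 lower, against 3.6% higher and 5.38% lower of all probe sets. The monocyte markers of lowest p, both among the 3 lower ones, were Cd74, the invariant chain, with -0.41 (SE 0.096) and Ctss with -0.49 (SE 0.12). The 12 measured progenitor markers, which include the 4 primary granule members, ran from 131.5 to 135.0 in Lxn-/- and from 129.7 to 136.9 in WT, and 7 had the primary pool order. Of the 12, 7 were higher and 5 lower in Lxn-/-, Cd48 differed by 0.12 (SE 0.089), and Elane is given above.

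Most erythroid markers were highest in WT replicate 3, the pool with the lowest or nearly the lowest secondary granule signal. Their summed signal over 10 genes was 95.8 to 101.0 in Lxn-/- and 98.5 to 103.8 in WT, with 9 of 10 highest in WT replicate 3, against 24.6% of all probe sets, and 6 of 10 lowest in Lxn-/- replicate 3. Rhag, a membrane protein of red cell precursors, had 8.93, 9.92 and 8.62 in the Lxn-/- pools, against 9.03, 9.64 and 10.47 in the WT pools. All 10 had lower means in Lxn-/-, and Alas2 and Trim10 differed by -0.27 (SE 0.12) and -0.24 (SE 0.11). Alas2 was the exception in its pools, with the order of the secondary granule and S100 members, at 7.61, 7.44 and 7.68 in the Lxn-/- pools, against 8.02, 7.90 and 7.62 in the WT pools. For the 12 markers of eosinophils, basophils and mast cells the sum was 99.9 to 112.0 in Lxn-/- and 111.6 to 115.1 in WT, and 11 of 12 were lowest in Lxn-/- replicate 3, the pool with the highest secondary granule signal. The share of all probe sets lowest in Lxn-/- replicate 3 was not counted. Of the 12, 1 was higher and 11 lower in Lxn-/-. In 2 the genotypes did not overlap, with Lxn-/- lower, against 5.38% of all probe sets. Il5ra differed by -0.78 (SE 0.15) and Cma1, below the receptor level in every pool, by -0.25 (SE 0.086).

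Immediate early genes, which cells can induce during handling, shared part of the pattern. Of 24 measured, 9 had the pool order of the secondary granule and S100 members. Of the same genes, 22 were lowest in WT replicate 3, against 20.3% of all probe sets, and 14 highest in Lxn-/- replicate 3, against 17.6%. Their sums were 260.3 to 267.0 in Lxn-/- and 248.4 to 263.0 in WT. Nr4a1, a nuclear receptor gene, had 12.96, 12.24 and 13.27 in the Lxn-/- pools, against 12.71, 12.29 and 11.10 in the WT pools. Of the 24, 22 were higher and 2 lower in Lxn-/-, and the genes of lowest p were Dusp2 with 0.38 (SE 0.10) and Ccn1 with 0.37 (SE 0.11). In 4 of the 24 the genotypes did not overlap, with Lxn-/- higher, against 3.6% of all probe sets. The centred medians of the immediate early genes were 0.11, 0.088 and 0.24 in Lxn-/- pools 1, 2 and 3. In WT pools 1, 2 and 3 they were 0.13, -0.12 and -0.39. Within each genotype these medians had the pool order of the secondary granule and S100 members, over a narrower range. In Lxn-/- replicate 2 the secondary granule members had a centred median of -1.47.

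The 15 B and plasma cell markers were lower in Lxn-/- for all 15, with Mzb1 at -0.80 (SE 0.12) and Pou2af1 at -0.74 (SE 0.12). Their sums were 150.05 to 152.2 in Lxn-/- and 152.9 to 160.3 in WT. In 7 of the 15 the genotypes did not overlap, with Lxn-/- lower, against 5.38% of all probe sets. The 13 T and NK cell markers were highest in Lxn-/- replicate 2 for 10 of 13, with sums of 100.7 to 108.9 in Lxn-/- and 101.1 to 104.8 in WT, and with 0.31 (SE 0.26) for Klrb1c and 0.13 (SE 0.17) for Cd3d, which was below the receptor level in every pool. Of these 13, 9 were higher and 4 lower in Lxn-/-. The share of all probe sets highest in Lxn-/- replicate 2 was not counted. The 9 megakaryocyte markers summed to 78.8 to 82.2 in Lxn-/- and 78.8 to 81.1 in WT, with 6 higher and 3 lower in Lxn-/-, 0.14 (SE 0.085) for Itga2b and 0.12 (SE 0.10) for Vwf. The 16 LT-HSC markers summed to 162.2 to 165.4 in Lxn-/- and 161.8 to 165.1 in WT, with -0.28 (SE 0.12) for Ndn and -0.25 (SE 0.15) for Pdzk1ip1, and their centred medians stayed between -0.11 and 0.12. Those genes of lowest p were both lower, while 11 of the 16 were higher and 5 lower with a median of 0.033. Of the 16, 8 were highest in Lxn-/- replicate 3, against 17.6% of all probe sets. Procr, Hlf and Meis1 had the pool order of the secondary granule and S100 members.

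**Figure D5:**
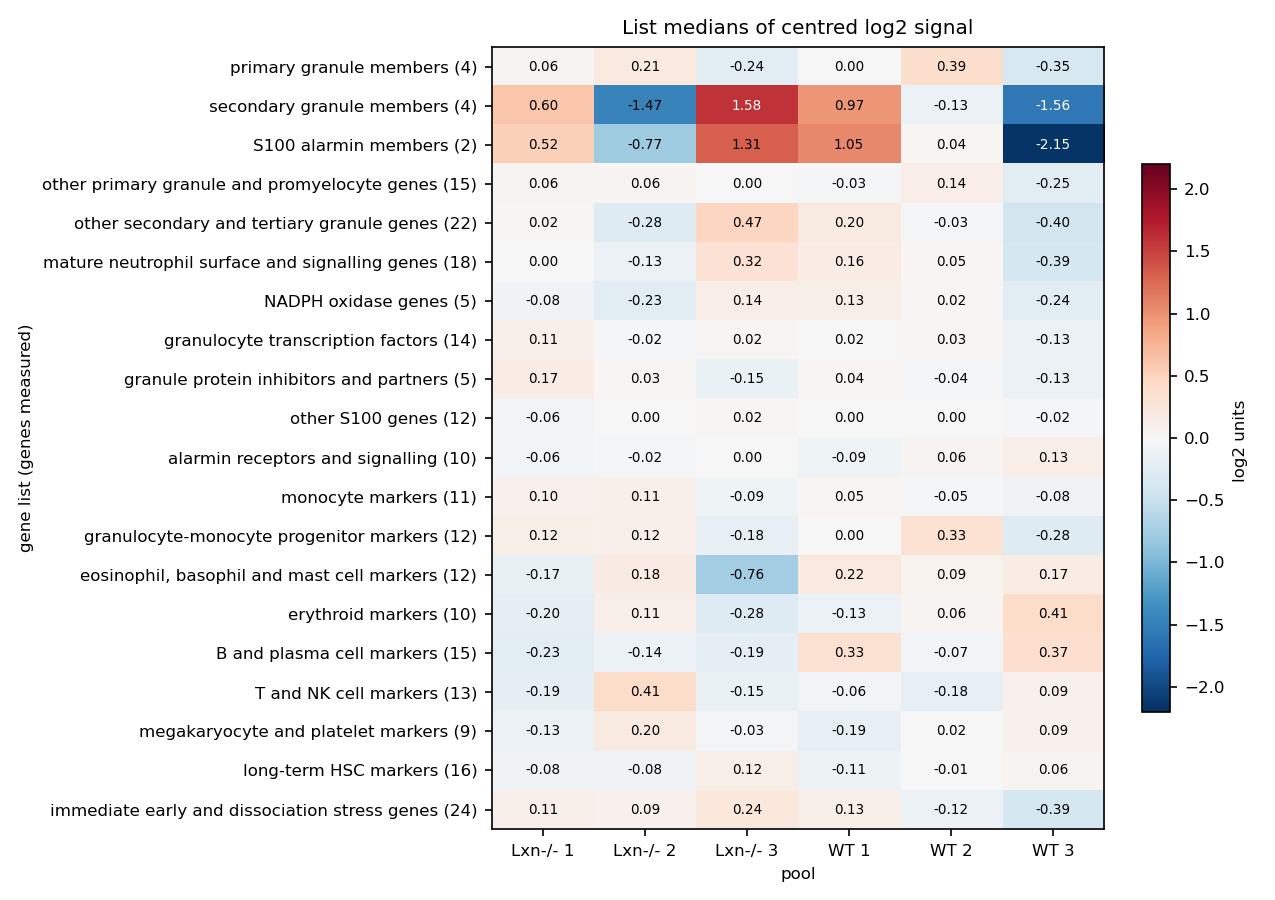
Median over each gene list (rows, genes measured in brackets) of log2 signal minus the gene's mean of 6 pools, in each Lxn-/- pool (left) and WT pool (right), in log2 units by colour and number. The secondary granule members run from 1.58 in Lxn-/- pool 3 to -1.56 in WT pool 3, while the LT-HSC markers stay between -0.11 and 0.12.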

How the data were processed

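Affymetrix mouse Gene 1.0 ST arrays measured the RNA of 6 pools of sorted cells. The deposited log2 values are the authors' output of robust multi-array average (RMA) normalization, per the series' design text, and the submitters' processing notes name RMA and Partek 6.0. The sources used here do not state the genome build or the level at which probes were summarised. The table held 35557 probe sets, of which the platform annotation gave 21789 a single gene symbol and 1621 several. These 23410 were tested with limma 3.58.1 in R 4.3.3 (lmFit and eBayes, no covariates, two-sided), with Benjamini-Hochberg adjustment over all of them and a threshold of 0.05. Differences are Lxn-/- minus WT. Each gene was represented by its brightest probe set over the 6 arrays, and each of the 10 genes had 1. The step was tested on simulated data.

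Members, lists and tests were chosen with earlier results of these data known. Besides the members and Lxn, genes were named by fixed rules: the 2 genes of lowest unadjusted p per list where none passed, and the 5 genes nearest to each mean profile. Other genes were chosen after their values were seen. Of 253 listed genes, 221 were measured. Alternatives were other normalizations, array weights, a trended and robust variance, a filter on dim probe sets, all probe sets, a replicate block and single arrays left out. The pair of arrays left out together was added after the data were seen. The main fit did not pair samples by replicate number. The correlations of same-numbered deviations over probe sets were 0.37, -0.072 and -0.081, and those of other pairs ran from -0.34 to 0.36. Whether same-numbered pools were handled together was not tested, and these values cannot decide it.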

Additional observations from a re-analysis of the deposited data

How the results depend on the processing

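In each setting listed here 0 members and 0 probe sets passed in limma, and with all 6 arrays 914 probe sets (3.9%) had an unadjusted p under 0.05. Leaving out single arrays gave differences from -0.094 to 0.071 for Mpo, -0.32 to 0.0034 for Elane, -0.20 to 0.27 for Prtn3, -0.18 to 0.34 for Ctsg, -0.19 to 1.33 for Ngp, -0.046 to 0.98 for Camp, -0.28 to 1.49 for Ltf, -0.27 to 1.36 for Lcn2, -0.14 to 1.40 for S100a8 and -0.24 to 1.42 for S100a9. The medians of the primary, secondary and S100 members then ran from -0.19 to 0.17, -0.17 to 1.35 and -0.19 to 1.41. Without Lxn-/- replicate 3 and WT replicate 3, a setting chosen after the data were seen, the differences were -0.080 for Prtn3, -0.026 for Ctsg, -0.79 for Ngp, -0.49 for Camp, -0.99 for Ltf, -0.91 for Lcn2, -0.58 for S100a8 and -0.77 for S100a9, with an S100 median of -0.67. Array weights gave -0.16 for Prtn3 and -0.14 for Ctsg, and a common median gave -0.0011 for Prtn3. With quantile normalization, trended and robust variances, a filter on dim probe sets, all probe sets or a replicate block, all 10 members kept their direction. The replicate block left 0 members and 0 probe sets passing. It gave SEs of 0.066 for Mpo, 0.067 for Elane, 0.12 for Prtn3 and 0.11 for Ctsg, where the main fit gave 0.10, 0.19, 0.22 and 0.25. For the secondary granule and S100 members its SEs ran from 0.56 to 0.93, where the main fit gave 0.58 to 0.94. With trended and robust variances the SEs of those members were larger than in the main fit, from 0.72 for Camp to 1.21 for Ltf. Each member had 1 probe set, so averaging probe sets changed nothing. The number of arrays limits the precision, and the cause of these shifts was not tested.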

Other observations

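Among the 20 single-gene probe sets of widest spread between pools of the same genotype, 6 were members and 6 were other listed neutrophil genes. The 8 others, none with the pool order of the secondary granule and S100 members, were Igkv5-43, Ear6, Epx, Sparc, Serping1, Cxcl12, Ighg3 and Cdh5, named after their values were seen. Epx, the eosinophil peroxidase, had 9.78, 10.42 and 8.54 in Lxn-/- pools 1, 2 and 3, against 10.63, 12.19 and 9.66 in WT pools 1, 2 and 3, and its pools came in the order of the primary granule genes within each genotype. Cxcl12, the chemokine made by marrow stromal cells, had 7.80, 9.13 and 7.18 in the Lxn-/- pools, against 7.62, 7.34 and 8.74 in the WT pools. Sparc, a matrix protein, had 9.84, 10.19 and 8.34 in the Lxn-/- pools, against 9.55, 8.73 and 10.58 in the WT pools. Cdh5, an endothelial cadherin, had 9.09, 9.20 and 7.54 in the Lxn-/- pools, against 8.87, 8.09 and 9.70 in the WT pools. These 3 stromal and endothelial genes were lowest in Lxn-/- replicate 3 and highest in WT replicate 3 or Lxn-/- replicate 2.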
